A study of Mus musculus with 8 samples.

Results

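Lilr4b and Lilrb4a, a pair of neighbouring mouse genes for leukocyte immunoglobulin-like receptors, were followed in RNA from sorted lung endothelial cells. They are 2 of the 34899 genes in the deposited table and were picked by symbol, because earlier results of the same comparison had placed them among the genes lowest in HF relative to LF. Their difference between HF and LF is therefore given as a description, without a test. The cells came from lungs of female C57BL6 mice, 4 labelled HF and 4 labelled LF, and had been sorted as CD45- CD31+ cells. The labels do not spell out HF and LF and give no age, diet, or treatment; the title of the series concerns obesity. Whether each library is 1 mouse is not stated beyond the number of mice per group, so the spread between libraries may be partly technical.

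Lilrb4a encodes gp49B, a surface receptor of mast cells, macrophages, neutrophils and other leukocytes whose cytoplasmic tail carries tyrosine motifs that recruit phosphatases and dampen activation. Lilr4b encodes its close relative gp49A, which lacks those motifs. Ptprc encodes CD45, the surface phosphatase of leukocytes on which the sort selected, and Pecam1 encodes CD31, the endothelial adhesion molecule on which it also selected.

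The genes lie side by side on the plus strand of chromosome 10 (GRCm38). Lilr4b (ENSMUSG00000112023) spans chr10:51480632-51486703 and Lilrb4a (ENSMUSG00000112148) spans chr10:51490956-51496611, with 4252 bases between them. Their first 7 coding exons have equal lengths and differ at 35 of 864 bases, an identity of 95.95%. Coding exon 3 carries 17 of these differences, more than any other of these exons. Its sequences are shown as an example of bases by which reads can be told apart. They were read from the GENCODE M21 transcripts at chr10:51481140-51481424 and chr10:51491434-51491718, with the differing bases in capitals.
Lilr4b coding exon 3: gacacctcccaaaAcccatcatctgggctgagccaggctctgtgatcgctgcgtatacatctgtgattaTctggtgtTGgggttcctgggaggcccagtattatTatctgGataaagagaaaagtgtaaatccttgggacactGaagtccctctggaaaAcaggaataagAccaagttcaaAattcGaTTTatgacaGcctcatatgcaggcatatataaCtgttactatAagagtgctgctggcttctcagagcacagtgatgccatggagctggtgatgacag
Lilrb4a coding exon 3: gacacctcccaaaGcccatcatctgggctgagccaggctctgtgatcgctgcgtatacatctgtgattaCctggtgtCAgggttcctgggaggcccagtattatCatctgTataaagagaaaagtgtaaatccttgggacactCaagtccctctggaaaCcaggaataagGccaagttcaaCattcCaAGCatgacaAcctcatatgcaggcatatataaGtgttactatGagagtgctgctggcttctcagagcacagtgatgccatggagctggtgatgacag

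The coding sequences part after those exons. Lilr4b ends with 45 further coding bases in exon 8 (chr10:51485713-51485757), and Lilrb4a with 141 in exon 8 (chr10:51495994-51496059) and exon 9 (chr10:51496167-51496241). These ends are shown because they hold the stretch by which an inhibitory receptor is recognised. Capitals mark in-frame runs of 18 bases in which a codon for isoleucine, valine, leucine or serine is followed, at the third codon, by tyrosine and, at the sixth, by isoleucine, valine or leucine.
Lilr4b coding exon 8: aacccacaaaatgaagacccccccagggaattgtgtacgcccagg
Lilrb4a coding exon 8: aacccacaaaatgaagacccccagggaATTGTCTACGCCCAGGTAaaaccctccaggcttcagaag
Lilrb4a coding exon 9: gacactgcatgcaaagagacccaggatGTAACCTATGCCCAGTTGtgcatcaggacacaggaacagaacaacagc

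In these ends the search matched 0 runs in Lilr4b and 2 in Lilrb4a, and over the whole coding sequences 1 and 3. The longest run of C in exon 8 was 7 bases in Lilr4b and 5 in Lilrb4a. A match describes the letters only. The coding sequences had 303 codons in Lilr4b and 335 in Lilrb4a.

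The locus has features that bear on how reads were assigned to the pair. First, the paralogs share sequence: 22.89% of the 50-base windows of the main Lilr4b transcript and 27.78% of those of the main Lilrb4a transcript were identical in the other gene, against 5.453% and 7.468% of the 150-base windows. None of the 50-base windows of either main transcript was found in another gene's transcripts once the read-through model was left aside (0 of 1787 and 0 of 1332). Second, a read-through gene model, Gm49339, runs across both genes and has 22 of its 1990 exon bases outside them. It covers 35.32% of the exon bases of Lilrb4a and 2.243% of those of Lilr4b. Of the main Lilrb4a transcript, 55 of 1381 bases belong to no other gene, against 1714 of 1836 bases in Lilr4b. The settings with which reads in shared bases were counted are not known from the labels. At most 4 reads per library were counted for Gm49339, so few reads in the bases it shares were credited to it. Whether such reads were counted for the paralogs or for no gene is not known. If for no gene, the Lilrb4a counts come from its 3353 exon bases in no other gene. Levels of the paralogs are therefore not directly comparable with each other, while each can be followed across libraries.

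**Figure D1:**
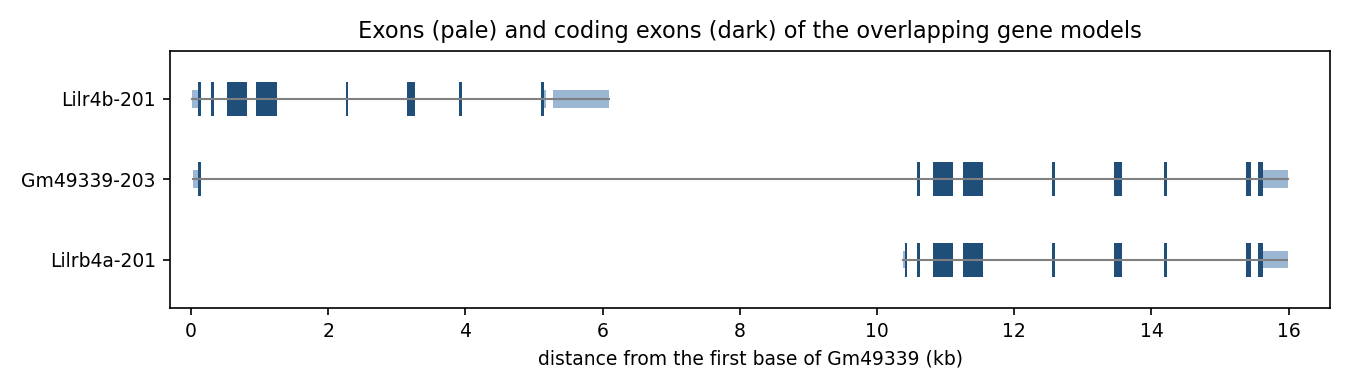
Exons of the main transcripts of Lilr4b, Gm49339 and Lilrb4a along the plus strand, by distance in kb from the first base of Gm49339, with coding exons dark and other exon bases pale. The read-through model joins the start of Lilr4b to all later exons of Lilrb4a.

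The read-through model itself held few reads. It had 0, 1, 1 and 0 reads in HF 1 to 4 and 4, 4, 3 and 2 in LF 1 to 4. This left it under the filter on low values. With 22 of its 1990 exon bases outside the paralogs, its count would be low at any level if reads in shared bases were left out. The count therefore does not show how much of the read-through was transcribed. Gm40645, an antisense gene model whose span (chr10:51489530-51522447) covers all of Lilrb4a, held 4 reads over the HF libraries and 8 over the LF libraries. Of its 874 exon bases, 743 belong to no other gene; in the other 131, reads cannot be assigned without the strand setting.

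Both paralogs passed the filter on low values (a normalised count of 10 or more in 4 libraries or more), which 17067 genes passed. A normalised count is the number of reads of a gene divided by a size factor of its library and is not scaled for gene length. Recovered reads per library numbered 10631506 to 20781564. The LF libraries did not form one group: on the first principal component LF 1 and LF 2 lay at -56.4 and -50.9 and all other libraries between -6.79 and 39.6, and on the second LF 3 and LF 4 stood apart at 38.5 and 34.2. The values of the paralogs and Ptprc, and the list values that depend on a pair, are therefore also given without it.

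Lilr4b was lower in HF than in LF. Its normalised counts were 531, 557, 579 and 651 in HF 1 to 4 and 1248, 773, 1230 and 1424 in LF 1 to 4. Every HF library lay below every LF library, and LF 2 was the lowest of its group. The means were 580 ± 51.6 in HF and 1169 ± 278 in LF (SD, n = 4 each), a limma log2 fold change of HF over LF of -0.98, or 0.507 times the LF level. Leaving out LF 1 and LF 2 gave a change of -1.19, and leaving out LF 3 and LF 4 one of -0.76. Between 523 and 1259 reads per library stood behind these values, and the spread in percent of the mean was 8.90% in HF and 23.8% in LF.

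Lilrb4a was also lower in HF. Its normalised counts were 234, 275, 216 and 213 in HF 1 to 4 and 355, 433, 384 and 498 in LF 1 to 4. Here too the groups did not overlap, but LF 1 rather than LF 2 was the lowest LF library. The means were 234 ± 28.9 and 418 ± 62.3 (SD, n = 4 each), a log2 fold change of -0.83, or 0.564 times the LF level. Leaving out LF 1 and LF 2 gave -0.90, and leaving out LF 3 and LF 4 gave -0.75. Reads numbered 222 to 469 per library. In the authors' deposited table the log2 fold changes were -1.01 (standard error 0.188) for Lilr4b and -0.83 (standard error 0.169) for Lilrb4a.

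**Figure D2:**
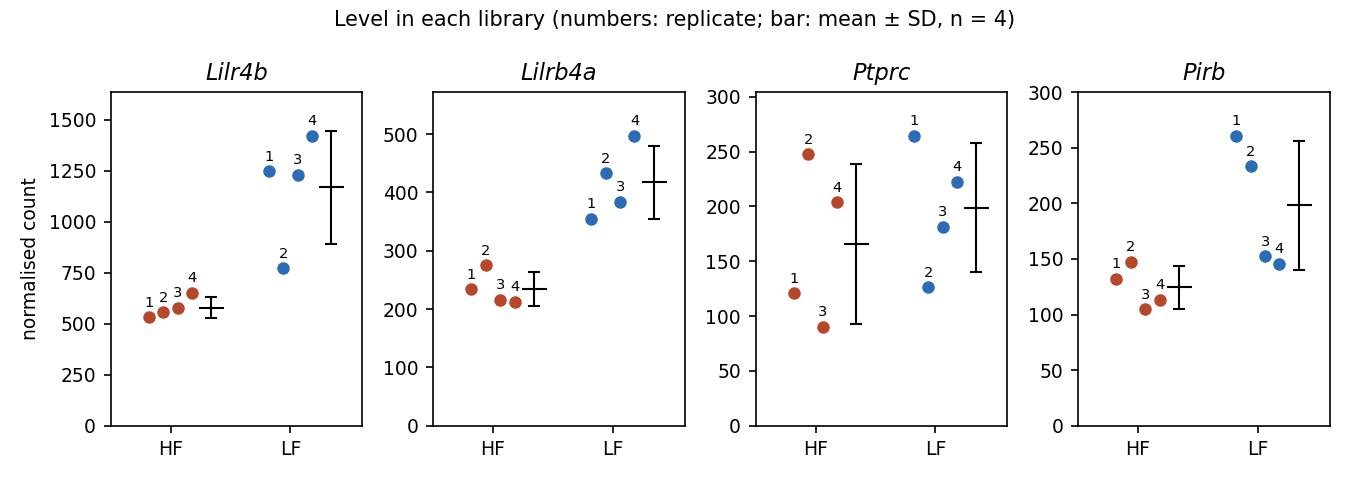
Normalised count of Lilr4b, Lilrb4a, Ptprc and Pirb in each HF and LF library, with the mean and SD of 4 libraries beside the points and replicate numbers above them. HF and LF do not overlap for the paralogs (HF at most 651 and 275, LF at least 773 and 355) and overlap for Ptprc; for Pirb, HF 2 (148) lies above LF 4 (146).

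This pattern is what chose the genes, so nothing is read from it, and its background was as follows. Groups that did not overlap, with HF lower, were found for 1.96% of the 17067 genes (3.47% with HF higher), and a lower HF mean for 46.8% (53.2% higher). By limma's p for this contrast Lilr4b ranked 12 and Lilrb4a 17. They were chosen for this same contrast, so the ranks lend the difference no support. At an adjusted p under 0.05, limma called 0 genes (0% in either direction; 1882 genes at an unadjusted p under 0.05), edgeR called 0 (1905 unadjusted), and DESeq2 called 86 lower and 227 higher, or 0.596% and 1.57% of the 14420 genes for which it gave an adjusted p. The median log2 fold change of all tested genes was 0.02.

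The paralogs did not keep a fixed proportion to each other from library to library. Lilr4b counts per Lilrb4a count were 2.27, 2.02, 2.68 and 3.06 in HF 1 to 4 and 3.52, 1.78, 3.201 and 2.86 in LF 1 to 4, so the groups overlapped and LF 1 and LF 2 held both extremes. Once group means were removed, no relation between the log2 levels of the paralogs was detected over the 8 libraries (Pearson r = -0.09, exact permutation p = 0.884, Spearman rho = -0.21, exact permutation p = 0.677; adjusted over 3 relations 0.884 and 0.972). Without LF 2 and LF 4, the libraries farthest from the median, r was -0.68.

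Per kilobase, the receptors stood above Ptprc, the leukocyte marker that the sort had selected against, but not above all leukocyte markers. On the scale of mean normalised count per kb of the longest coding transcript, Lilr4b had 476, Lilrb4a 236 and Ptprc 35.9. Pirb, the paired immunoglobulin-like inhibitory receptor of myeloid and B cells, had 42.2 on that scale, Csf1r, the macrophage growth factor receptor, 40.6, and Fcgr3, a low-affinity IgG receptor, 70.6. Fcer1g and Tyrobp, adaptors of activating receptors in myeloid and NK cells, reached 283 and 339, and Pecam1 reached 7793. Per kb of all annotated exons, which include retained introns in 8 Lilr4b and 9 Lilrb4a transcripts, the levels were 161, 62.4 and 9.96 for Lilr4b, Lilrb4a and Ptprc. Lilr4b then ranked 5004 of the 17067 genes, Lilrb4a 8818 and Ptprc 14597. On that scale listed leukocyte markers lay on both sides of the pair, with Ikzf1 at 3.54, Cd53 at 87.7, Laptm5 at 103 and Lyz2 at 3516. Per kb of exon bases in no other gene, the levels were 164 for Lilr4b, 97.2 for Lilrb4a and 9.96 for Ptprc. Because of the bases shared with Gm49339, the level of Lilrb4a per kb is uncertain, and that per kb of its coding transcript above all.

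Ptprc, the reference for leukocyte RNA, took no part in choosing the pair and was tested. Its normalised counts were 121, 248, 90.4 and 204 in HF 1 to 4 and 265, 127, 182 and 223 in LF 1 to 4. The groups overlapped over most of their range, with HF 2 and HF 4 above LF 2 and LF 3. The means were 166 ± 72.8 and 199 ± 59.0 (SD, n = 4 each), a log2 fold change of -0.32 (SE 0.315), or 0.800 times the LF level with a limma 95% interval of 0.498 to 1.29. This did not pass the test (limma adjusted p = 0.708; two-sided exact permutation p = 0.457 over 70 splits, the smallest possible being 0.0286). Leaving out LF 1 and LF 2 gave a log2 fold change of -0.39 (limma adjusted p = 0.725), and leaving out LF 3 and LF 4 one of -0.25 (limma adjusted p = 0.666). The interval from all libraries includes the fold changes of both paralogs, so at this spread a lower Ptprc level of their size could not be told from an equal one. Whether the paralogs and Ptprc differ in their change was not tested.

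Set against Ptprc within each library, the paralogs had overlapping HF and LF ranges, while their mean ratios stayed lower in HF. Lilr4b counts per Ptprc count were 4.39, 2.25, 6.41 and 3.19 in HF 1 to 4 and 4.71, 6.11, 6.77 and 6.39 in LF 1 to 4. HF 3 lay within the LF range and the other HF libraries below it. For Lilrb4a the ratios were 1.93, 1.11, 2.39 and 1.04 in HF and 1.34, 3.42, 2.12 and 2.23 in LF. HF 1 and HF 3 lay within the LF range, and LF 1 was below both of them. Ratios to Fcer1g, to Pirb and to the summed pan-leukocyte markers without Lcp1 overlapped as well; Lcp1 was left out of that sum after its values were seen, because it supplied most of it. Ratios to Pecam1 kept the groups apart: Lilr4b counts per 1000 Pecam1 counts were 19.4 to 22.04 in HF and 39.2 to 64.3 in LF, and Lilrb4a counts 7.19 to 9.61 and 13.2 to 21.9. These ratios carry the variation of both genes in them and the contrast that chose the pair, so they are given without a test.

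**Figure D3:**
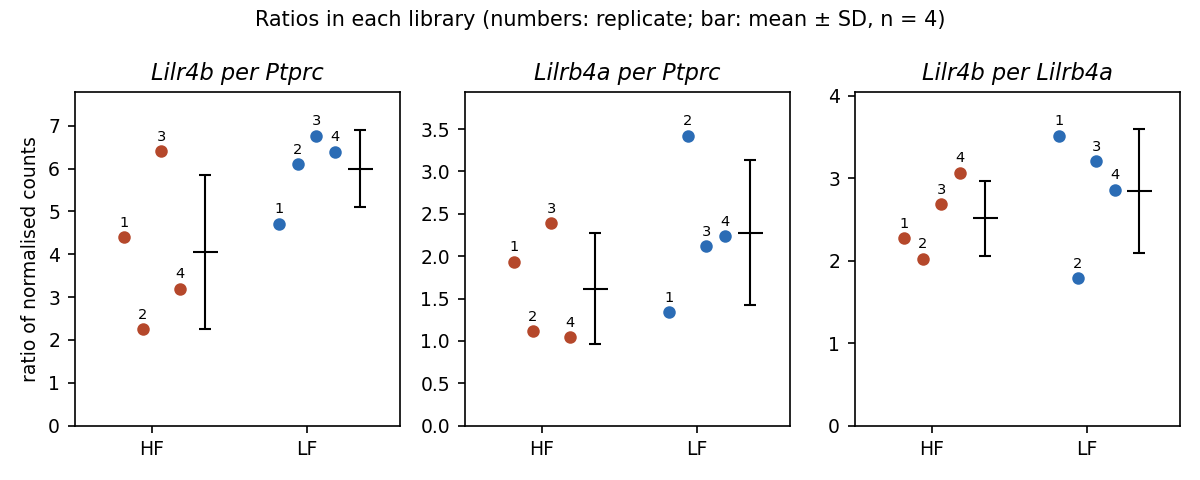
Ratio of normalised counts in each HF and LF library for Lilr4b per Ptprc, Lilrb4a per Ptprc and Lilr4b per Lilrb4a, with the mean and SD of 4 libraries beside the points. In all 3 panels the groups overlap; for Lilr4b per Ptprc, HF spans 2.25 to 6.41 and LF 4.71 to 6.77.

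Whether libraries with more Ptprc also held more of the receptors was examined with group means removed. For Lilr4b the relation was r = 0.54 over 8 libraries (exact permutation p = 0.127 over 576 arrangements; rho = 0.43, exact permutation p = 0.316; adjusted over 3 relations 0.380 and 0.948). It was 0.23 without HF 3 and LF 2. For Lilrb4a it was r = 0.18 (exact permutation p = 0.660; rho = -0.02, exact permutation p = 0.972; adjusted over 3 relations 0.884 and 0.972) and 0.16 without the same libraries. None of these relations passed the test.

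Other receptors of the family and its surroundings were read from lists of genes. Of 17 listed relatives, 9 were analysed here and 4 passed the filter, 3 of them with a lower HF mean, and none was called by limma. Pirb counts were 132, 148, 105 and 113 in HF 1 to 4 and 261, 234, 153 and 146 in LF 1 to 4, with HF 2 above LF 4. Its means were 124 ± 19.1 and 198 ± 57.8, a log2 fold change of -0.63 (SE 0.222, limma adjusted p = 0.321). LF 1 and LF 2 carried most of that difference: the limma adjusted p was 0.676 without them and 0.00944 without LF 3 and LF 4. In the latter setting limma called 3421 of all 17067 tested genes. Lilra5, an activating relative of myeloid cells, had 8.18 ± 5.34 and 25.6 ± 18.7 normalised counts (log2 fold change -1.48, limma adjusted p = 0.332). Lair1, an inhibitory collagen receptor, had 22.9 ± 13.3 and 28.4 ± 2.40. Gp6, the collagen receptor of platelets, had 96.8 ± 77.6 and 60.3 ± 43.0, the reverse order. Lilra6, Pira2, Oscar, Tarm1 and Ncr1 stayed under the filter, with means of at most 8.18 in either group.

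Among 26 other inhibitory receptors of leukocytes, 14 passed the filter and 9 had a lower HF mean. The most abundant per kb were Ceacam1, an adhesion molecule also made by endothelium, Vsir, the checkpoint receptor VISTA, and Sirpa, the receptor of CD47. Their log2 fold changes were 0.39, 0.44 and 0.23, opposite in sign to the paralogs, and none passed limma's test (adjusted p of 0.527, 0.496 and 0.665). Both the sign and the call depended on the LF pair. When LF 1 and LF 2 were left out the changes were -0.06, -0.04 and -0.07. When LF 3 and LF 4 were left out they were 0.85, 0.91 and 0.53, all past limma's threshold (adjusted p of 0.00227, 0.00227 and 0.0458). In that last setting limma called 5 genes of this list and 3421 of all 17067 tested genes. The other calls of the list were Milr1 (-1.37, limma adjusted p = 0.00335) and Cd72 (-1.41, limma adjusted p = 0.0448), both lower in HF. Cd33, a sialic acid receptor of myeloid cells, was singled out after its values were seen, as the 1 listed receptor called by DESeq2 (adjusted p = 0.0346; limma adjusted p = 0.224). Its normalised counts were 18.3, 7.998, 7.77 and 11.8 in HF and 58.6, 14.8, 32.1 and 44.1 in LF.

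The phosphatases and kinases on which inhibitory receptors act gave no call. All 13 were tested, 10 with a lower HF mean, with a median log2 fold change of -0.20, and 0 at an unadjusted limma p under 0.05. Lyn, a kinase that phosphorylates the tyrosine motifs, had 3585 ± 400.3 and 3575 ± 936 normalised counts. Ptpn6, the phosphatase SHP-1, had 48.6 to 78.2 counts in HF and 65.6 to 107 in LF (log2 fold change -0.49, limma adjusted p = 0.482). The adaptors of activating receptors had fold changes of the same sign as the paralogs, with Fcer1g at 0.783 and Tyrobp at 0.733 times the LF level (limma adjusted p of 0.676 and 0.611).

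Reported binding partners of the receptors were also measured. The integrin subunits Itgav and Itgb3 form a ligand of mouse gp49B, and apolipoprotein E, fibronectin and ALCAM are reported ligands of human LILRB4. Apoe had 1503 ± 142 normalised counts in HF and 2096 ± 197 in LF, with no overlap between groups (log2 fold change -0.48, SE 0.118, limma adjusted p = 0.170, DESeq2 adjusted p = 0.00980). Its limma adjusted p was 0.0381 when LF 1 and LF 2 were left out and 0.0208 when LF 3 and LF 4 were. Over all 17067 tested genes, these omissions gave 641 and 3421 limma calls. Itgav had 664 ± 72.8 and 528 ± 61.9 counts (log2 fold change 0.33) and Itgb3 303 ± 152 and 396 ± 198 (-0.35); neither passed limma's test (adjusted p of 0.393 and 0.740).

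Leukocyte marker transcripts were detected in the sorted cells, and most had lower means in HF. Of 19 tested pan-leukocyte genes, 18 had a lower HF mean against 46.8% of all genes, with a median log2 fold change of -0.58 against 0.02; 6 had an unadjusted limma p under 0.05, where 4.67% of all genes did so with HF lower and 6.36% with HF higher, and none was called. Their summed counts were 3519 to 5494 in HF and 3810 to 5321 in LF, or 1003 to 2509 and 1483 to 2622 without Lcp1, an actin-bundling protein whose own means were 2892 and 2671. The median was -0.73 when LF 1 and LF 2 were left out and -0.46 when LF 3 and LF 4 were. None of these markers was at 0 in any library. Cd53, a leukocyte tetraspanin, had 105 ± 39.1 and 200 ± 83.1 counts, 0.537 times the LF level (limma adjusted p = 0.391). In bulk RNA, fewer cells of a type and less RNA per cell cannot be told apart. The part of these markers in the lower level of the paralogs was not tested.

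Markers of single leukocyte types mostly had the same sign. Of 23 tested monocyte and macrophage genes, 20 had a lower HF mean, with a median log2 fold change of -0.52 and summed counts of 5786 to 9429 in HF and 9085 to 12427 in LF. Lyz2, the lysozyme of myeloid cells, had 3855 ± 1165 and 5400 ± 766 counts, and Marco and Fcgr4 were at 0 in 1 library each. All 11 tested neutrophil genes had lower HF means (median -0.88; sums of 136 to 347 and 243 to 771), while the defining genes Ly6g and Mpo were at 0 in 6 and 7 of the 8 libraries and Camp in 4. All 7 tested mast cell and basophil genes did so too (median -0.60; sums of 152 to 762 and 310 to 754), with the mast cell proteases Mcpt4 and Cma1 at 0 in 6 and 4 libraries and the receptor Mrgprb2 at 0 in 7. For dendritic cells it was 6 of 7 (median -1.01; sums of 4143 to 4717 and 4083 to 4522), with Flt3, Xcr1, Siglech and Itgae at 0 in 1 library each. Zbtb46, with means of 3094 and 2754, and Clec9a, with 1218 and 1352, supplied most of those sums. It was 7 of 8 for T and NK cells (median -0.42; sums of 151 to 363 and 257 to 393), where Cd3e, Cd3d and Cd3g were at 0 in 2 libraries each and Cd8a in 4. For B and plasma cells it was 5 of 5 (median -0.80; sums of 74.8 to 203 and 186 to 332), with Mzb1 at 0 in 5 libraries. Of the eosinophil genes only Prg2 passed the filter, and Epx and Ear6 were at 0 in 7 libraries each. No gene of these lists was called by limma, edgeR or DESeq2 over all libraries, and their part in the result was not tested.

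The leukocyte lists also depended on the LF pairs. The monocyte and macrophage genes with a lower HF mean numbered 21 of 23 when LF 1 and LF 2 were left out (median -0.83) and 14 of 23 when LF 3 and LF 4 were (median -0.34). The limma calls in this list were then 2, among them C1qc (-1.73), and 4, among them Cd68 (-0.73), Mrc1 (-0.95) and Plac8 (0.58). Over all 17067 tested genes, limma called 641 and 3421 under these omissions. The mast cell and basophil median was -1.38 and -0.31 under the same omissions, and that of T and NK cells -0.31 and -0.83, with 0 calls. Neutrophil, dendritic cell and B cell medians ran from -1.14 to -0.67, with 2 calls, Zbtb46 (0.36) and Clec9a (-0.47), when LF 3 and LF 4 were left out.

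**Figure D4:**
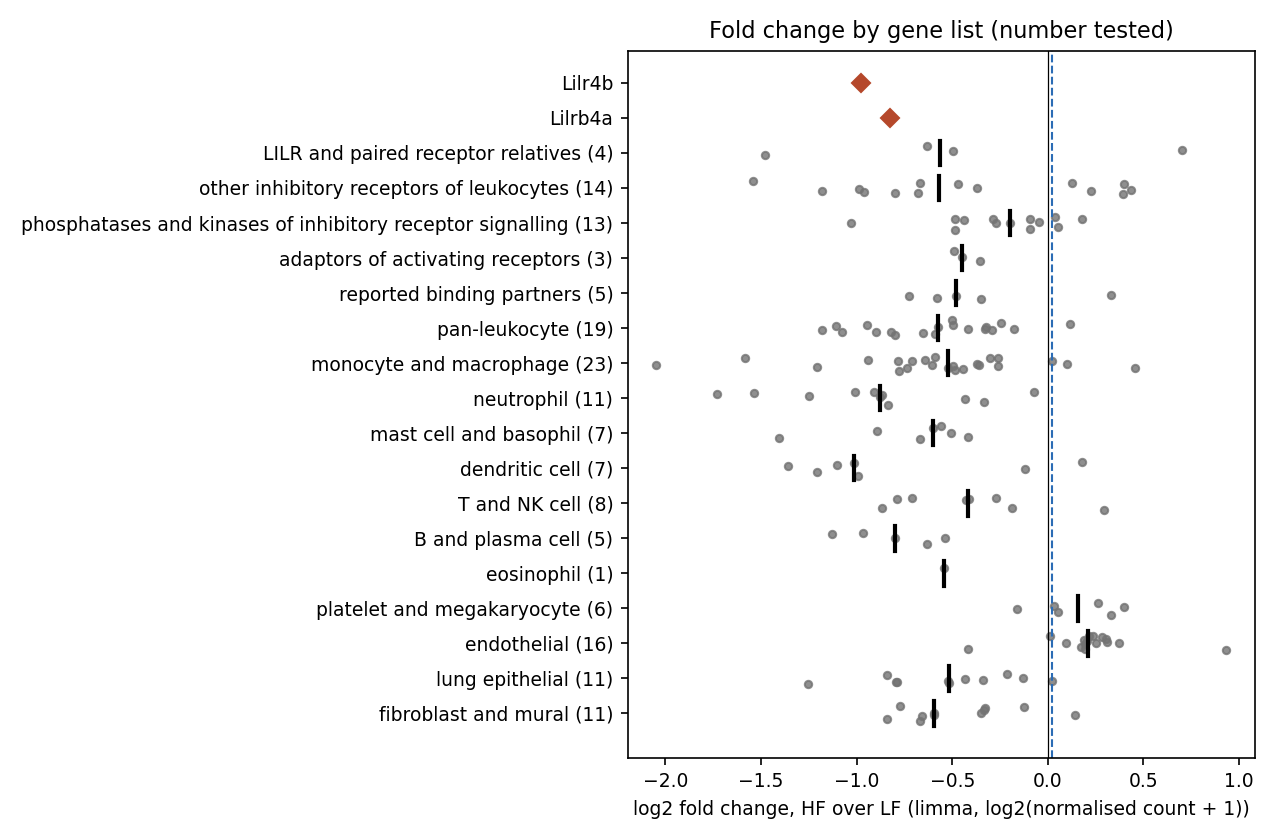
Limma log2 fold change of HF over LF for each tested gene of the lists (grey points, list median as a black bar, number tested in brackets) beside Lilr4b and Lilrb4a (diamonds); the dashed line is the median of all genes, 0.02. Over all libraries, medians lie below it for each leukocyte list, the epithelial list (-0.52) and the fibroblast and mural list (-0.60), and above it for the endothelial (0.21) and platelet (0.16) lists.

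Markers of other lung cells differed in mean between the groups as well. The endothelial list had summed counts of 232087 to 259158 in HF and 168179 to 272521 in LF; 15 of 16 had a higher HF mean (median log2 fold change 0.21). Without LF 1 and LF 2, 10 of the 16 were lower instead, with a median of -0.03. Of 11 epithelial genes 10 had a lower HF mean (median -0.52), as did 10 of 11 fibroblast and mural genes (median -0.60). When LF 1 and LF 2 were left out, 7 of 11 epithelial genes were lower with a median of -0.05, and when LF 3 and LF 4 were left out all 11 were, with a median of -0.93; the fibroblast and mural medians were -0.42 and -0.69. Their summed counts were 10749 to 20100 in HF and 13541 to 29701 in LF for the epithelial list and 3240 to 5280 and 4268 to 7764 for the fibroblast and mural list. Platelet genes had the opposite sign in 5 of 6 (median 0.16). Over all libraries limma and edgeR called 0 genes of these lists. DESeq2 called Sox17 (adjusted p = 0.0439), Scgb3a2 (0.000392) and Pdgfrb (0.0377), among 313 calls over all genes. Without LF 1 and LF 2, limma called 1 endothelial, 1 epithelial and 0 fibroblast and mural genes. Without LF 3 and LF 4 these numbers were 12, 6 and 4. Over all 17067 tested genes, limma called 641 and 3421 under these omissions. The part of any of these in the paralogs' difference was not tested.

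Within groups, the variation of the paralogs was set beside that of the listed genes. With group means removed, the median r of the lists' genes with the mean log2 level of the paralogs over the 8 libraries was 0.75 for endothelial, 0.65 for platelet, 0.52 for monocyte and macrophage, 0.47 for pan-leukocyte and -0.55 for epithelial genes, against 0.0068 for all tested genes and 0.31 for the 10919 tested genes with a mean of at least 50 that are candidates below. For Lilr4b alone it was 0.63 for mast cell and basophil, 0.47 for endothelial and 0.42 for pan-leukocyte genes, and for Lilrb4a alone -0.18, 0.47 and 0.10. These values share the same 8 libraries and the wide spread among the LF libraries, and are given as a description.

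The genes most like the pair over all 8 libraries, by Pearson r with the mean log2 level of the paralogs among 10919 tested genes with a mean of at least 50, were Snrpn (0.96), Pccb (0.96), Rflna (0.92), Scgb3a2 (0.92), C1qtnf1 (0.91), Wnt5a (0.90), Sptbn1 (0.90) and Carmn (0.89). All 8 had a lower mean in HF, which this measure favours, and the median r of the candidates was -0.12. With group means removed they were Klf11 (0.98), Sgtb (0.97), Arfgap3 (0.97), Xpo1 (0.96), Nprl2 (0.96), Zfp672 (0.95), Zfp595 (0.95) and Dmap1 (0.95), against a median of 0.31. Of the leading genes, Scgb3a2 was on the epithelial list and none on a leukocyte list. Klf11, a zinc finger repressor, had 1063 counts in LF 2 and 1981 in LF 4, the lowest and highest of its LF libraries, as Lilr4b did.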

How the data were processed

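Per the labels' protocols, TRIzol LS was used to extract RNA of CD45- CD31+ lung cells, and a SMART-Seq kit to prepare libraries. DESeq2 1.24.0, STAR 2.6.1b and featureCounts 2.0.0 are listed in the submitters' processing notes; genome build, annotation and counting settings are not known from the sources. The authors deposited normalised counts, a signal per gene and library that is reads divided by a size factor (0.820 to 1.27). Per the file headers the table also holds the authors' log2 fold changes with standard errors, a Wald score, p-values and adjusted p-values. Whole reads were recovered (100% of values whole within 0.01 reads). The 0 per-sample columns without a sample needed no exclusion.

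Positions, transcripts and sequences came from GENCODE M21 (GRCm38), to which all 34899 IDs matched; 24 symbols turned into dates were restored. Genes with a normalised count of 10 or more in 4 libraries or more (17067) were tested with limma 3.58.1 on log2(normalised count + 1) with a mean-variance trend, two-sided, with Benjamini-Hochberg adjustment over all genes; folds of low genes are understated. edgeR 4.0.16 and DESeq2 1.42.0 ran on the recovered reads. The tests were checked on simulated data that had no subgroups within HF or LF, so the check does not cover the split among the LF libraries. Depth limits genes with low counts, and reads without molecular identifiers are not independent molecules.

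The members and the 17 gene lists (224 genes, 213 with a row; the others were not analysed here) were chosen with earlier results of these data known. Named were the pair, overlapping models, Ptprc and relatives, from other lists the 3 genes highest per kb of exon, and the 8 genes most like the pair by each measure; others named were picked after their values were seen. The values of 2 listed genes are not reported here.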

Additional observations from a re-analysis of the deposited data

Results flagged for a closer look

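In each group of 4 libraries, the highest and lowest values of 63 quantities (levels of named genes and ratios of the paralogs) were compared with the rest; 7 of 125 groups held a library far from the other 3, where chance gives about 1 in 20. None was a value of Lilr4b, Lilrb4a or Ptprc. The flagged normalised counts were Tarm1 at 6.10 in HF 1, Ncr1 at 5.54 in LF 2, S100a9 at 22.3 in HF 3, Nkg7 at 79.3 in LF 1, Cd79a at 26.0 in LF 4, Il5ra at 2.03 in HF 1 and Scgb1a1 at 2119 in HF 4.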

How the results depend on the processing

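The fold changes of Lilr4b and Lilrb4a kept their direction under all 19 alternatives, from -1.19 to -0.76 and from -0.91 to -0.74 on the log2 scale. Every HF library lay below every LF library for both, so leaving libraries out could not turn that direction. The filters on low values and the replicate block leave a gene's fold change as it was. The fold change of Ptprc (-0.55 to -0.07) and the pan-leukocyte median (-0.80 to -0.34) stayed negative under all 19, and Ptprc passed the test under none. The number of genes called moved from 0 to 313 with DESeq2, 1 without the filter on low values, 641 when LF 1 and LF 2 were left out, and 3421 when LF 3 and LF 4 were; leaving out 1 library gave 0 to 1. The cause was not tested.

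The within-group relation of the paralogs ran from -0.659 to 0.157 when 1 library was left out and turned positive without HF 4 (0.0059), LF 1 (0.037) and LF 2 (0.157). That of Ptprc and Lilr4b ran from 0.248 to 0.718, and that of Ptprc and Lilrb4a from -0.232, without HF 2, to 0.499.

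Correlations of same-numbered HF and LF libraries, with group means removed, were 0.115, -0.222, -0.143 and 0.185. They were not compared with those of differently numbered libraries, so they do not decide whether replicate numbers pair the samples. With the replicate block limma called 0 genes (1810 at an unadjusted p under 0.05). The block cannot change a fold change here, because each replicate number has a library in both groups.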
